A study of Homo sapiens with 4 samples.

Results

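The genes described here are the ATP-dependent chromatin remodellers, 56 protein-coding genes of the 32673 genes in the expression table and of its 16816 protein-coding genes. They were chosen by name, as the SMARCA to SMARCE, ARID, CHD and INO80 genes together with 19 further subunits. The naming rule used no measured value, but it was set with earlier results of these data known. By role, 20 belong to SWI/SNF, 8 to NuRD, 7 are other CHD genes, 8 belong to INO80, SRCAP and TIP60, 3 to ISWI, 4 are other SNF2 ATPases, and 6 are ARID genes that lie outside SWI/SNF and are not remodeller subunits. RNA sequencing was performed on TF1-BA cells, which are imatinib sensitive, and on TF1-BAR cells, which are imatinib resistant, with 2 libraries of 10000000 cells per line. TF1 is a CD34+ human leukaemia line that grows with GM-CSF, and both lines carry BCR-ABL, which was brought in with a retrovirus, and were grown with GM-CSF, at 2 ng/ml by the labels and at a higher concentration by the study's methods. TF1-BAR cells were derived from TF1-BA cells by continuous imatinib treatment and were kept in 2 µM imatinib, so that resistance and the presence of the drug cannot be told apart. The titles of the TF1-BAR libraries also hold the word VECTOR, which the labels do not explain. Each condition is a single cell line, nothing says that the replicates came from separate cultures, and the p-values then measure only the spread between these libraries, which may be technical.

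Chromatin remodellers use ATP to slide, evict or exchange nucleosomes, and so set which DNA other proteins can reach. SWI/SNF complexes open promoters and enhancers and are built from sets of alternative subunits. ISWI complexes space nucleosomes, NuRD joins a CHD ATPase to histone deacetylases, and INO80, SRCAP and TIP60 exchange histone variants. In blood cells, subunits of SWI/SNF and NuRD are known for roles in stem cell maintenance and erythroid differentiation, and mutations in several of them occur in leukaemia.

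The cell identity and the depth of the libraries were checked first. The library sizes recovered from the FPKM (fragments scaled to exon length and to a library size) were between 15465497 and 18042299 fragments. These sizes are the divisors of the FPKM, and the fragments recovered for the listed genes summed to more in each library, 18168214 to 21129700, so that the number of fragments sequenced is not known from them. All 10 markers of TF1 cells were above 1 FPKM in each library, and their summed level was 505 to 533 FPKM in the TF1-BA cells and 643 to 674 FPKM in the TF1-BAR cells. The T cell list summed to 19.4 to 21.0 FPKM in the TF1-BA cells and 5.92 to 6.77 FPKM in the TF1-BAR cells, nearly all of it CD3D, while CD3E was at most 0.0227 FPKM. The B cell list summed to 3.22 to 3.60 and 4.22 to 4.55 FPKM, the monocyte list to 0.215 to 0.326 and 1.32 to 1.41 FPKM, the fibroblast list to 0.481 to 0.491 and 0.360 to 0.429 FPKM, and the epithelium list, nearly all KRT8 and with KRT5 at 0, to 8.86 to 10.0 and 12.3 to 12.9 FPKM. The part of these differences in the remodeller results was not tested. Pearson's r across genes, which are not independent replicates, was 0.983 between the TF1-BA replicates and 0.979 between those of TF1-BAR, while pairs across the lines gave 0.946 to 0.956.

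Most remodeller genes were expressed in both lines and differed little between them. 53 of the 56 genes passed the filter (a mean of at least 0.5 FPKM), and 12 of them (22.6%) were upregulated and 3 (5.66%) downregulated in the TF1-BAR cells at an adjusted p under 0.05 (limma, Benjamini-Hochberg over 15519 genes). Among all genes tested, 26.9% passed this threshold, 16.3% higher and 10.5% lower, and among the protein-coding genes tested 29.1% passed it, 16.6% higher and 12.5% lower. The median log2 fold change was 0.08 over the 53 remodeller genes, 0.07 over all genes tested and 0.04 over the protein-coding genes tested. The split moved with the scaling, to 16 higher and 1 lower after rescaling to TPM, where 20.5% of all genes tested were higher and 8.7% lower, and to 8 higher and 4 lower after upper-quartile scaling, where 12.2% were higher and 14.3% lower. Without TF1-BA replicate 1, and likewise without TF1-BA replicate 2, only 1 remodeller gene (CHD5) passed, while the genes passing among all tested fell from 4167 to 531 and 518. In bulk RNA, fewer cells of a type and less RNA per cell cannot be told apart.

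CHD5 alone also passed the fold change threshold of the study, a log2 fold change of 1 or more in size, which makes 1 of 53 remodeller genes (1.89%). The study used this threshold with DESeq2, and here it was applied to limma values on log2(FPKM + 0.5). In either direction 4.75% of all genes tested and 3.7% of the protein-coding genes tested passed both thresholds, and 3.05% and 2.04% did so as higher genes. The FPKM of the lines did not overlap for 34 of the 53 genes (64.2%), of which 25 had TF1-BAR above and 9 had it below. Lines without overlap were somewhat more frequent among all genes tested, at 69.3% (40.9% higher and 28.4% lower), and among the protein-coding genes tested, at 73.2% (40.8% higher and 32.4% lower). The 38 genes that did not pass had log2 fold changes between −0.23 and 0.32, and the 95% confidence intervals of all 38 lay between −0.46 and 0.79 on the log2(FPKM + 0.5) scale, which understates the fold of low genes such as DPF3, the gene of the upper bound.

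The levels spanned a wide range. The mean over the 4 libraries ran from 0.604 FPKM (DPF3) to 67.2 FPKM (RUVBL2) among the genes tested, and the median of the gene means was 8.31 FPKM in the TF1-BA cells and 9.55 FPKM in the TF1-BAR cells. FPKM between genes depends on the length it is divided by, which in these files is close to the union of all annotated exons. That length was 1.68 times the length of the MANE Select transcript (the representative transcript of a gene) in the median and up to 5.39 times (INO80C), and over 2 times in 18 genes. For ARID1B it was 44058 bases against 10310, so that its FPKM understates it beside a gene such as CHD5 with 9890 bases against 9850. Of the 56 genes, 13 share over 10% of their exon bases with another annotated gene, CHD4 (53.5%), CHD1L (69.8%) and BRD7 (41.9%) among them. For these genes the division of fragments is uncertain. Among the 15 genes that passed the test this share was at most 9.91% (SMARCC2). Remodeller genes are also long, with a median exon length of 9064 bases and 32 of the 56 above 7966 bases, the upper quartile of the other protein-coding genes tested. Over those other genes the median log2 fold change was 0.02, 0.03, 0.05 and 0.05 from the group with the shortest exons to that with the longest, split at the quartiles.

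In the NuRD complex, the ATPase CHD5 was upregulated in the TF1-BAR cells by the widest margin of all the remodeller genes. CHD5 is known mainly from the nervous system and the testis, and lies on the short arm of chromosome 1 (6101793 to 6180123, minus strand). Its level was 0.488 and 0.575 FPKM in the TF1-BA libraries, from 87 and 88 fragments. In the TF1-BAR libraries it was 3.68 and 3.87 FPKM, from 573 and 616 fragments. The ratio of the means was 7.10, and the log2 fold change was 2.05 ± 0.12 (SE, n = 2 per line, adjusted p = 0.00337, limma), above that of 99.8% of all genes tested. The 0.5 FPKM added before the logarithm lowers this value, and on the recovered fragments it was 2.84. CHD5 passed the test in each of the 14 alternative settings that kept all libraries and with any of the 4 libraries left out.

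The genes next to CHD5 did not rise by a like amount. Within 200 kb, RPL22 and ICMT had log2 fold changes of 0.31 and 0.34 (adjusted p = 0.0186 and 0.0267), ACOT7 and GPR153 of −0.35 and −1.08 (adjusted p = 0.0299 and 0.0102), and KCNAB2, NPHP4 and RNF207, which did not pass, of 0.18, 0.08 and −0.19. The median over the other genes of chromosome 1 was 0.05. Of the exon bases of CHD5, 2.12% are shared with another annotated gene.

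CHD4, the main NuRD ATPase in most tissues, and CHD3 were not past the threshold. CHD4 had 60.5 and 58.9 FPKM in the TF1-BA libraries and 68.3 and 70.4 FPKM in the TF1-BAR libraries, with a log2 fold change of 0.21 ± 0.06 and an adjusted p of 0.0503. The lines did not overlap, and CHD4 passed in 5 of the 14 alternative settings. CHD3 went from 7.76 and 7.89 to 8.91 and 9.28 FPKM (log2 fold change 0.20 ± 0.07, adjusted p = 0.0990). As a share of the FPKM of the 3 alternative ATPases, CHD5 held 0.709% and 0.854% in the TF1-BA libraries against 4.54% and 4.64% in the TF1-BAR libraries, and CHD4 held 88.0% and 87.4% and then 84.4% and 84.3%. CHD4 thus remained the most abundant of the 3 in each library, also per MANE Select length, where the mean share of CHD5 was 0.469% and 2.80%.

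MTA3, a scaffold subunit of NuRD, was the other member of this complex past the threshold. Its level was 5.06 and 4.999 FPKM in the TF1-BA cells and 6.97 and 8.33 FPKM in the TF1-BAR cells (log2 fold change 0.55 ± 0.11, adjusted p = 0.0240). The TF1-BAR libraries lay above both TF1-BA libraries but apart from each other. Its adjusted p was 0.122 and 0.126 without TF1-BA replicate 1 and replicate 2, 0.0618 without TF1-BAR replicate 2, and 0.0755 without the filter. Among the MTA genes, MTA3 held 7.42% and 6.91% of the summed FPKM in the TF1-BA libraries against 9.47% and 10.1% in the TF1-BAR libraries. MTA1 and MTA2, the more abundant scaffolds, had log2 fold changes of 0.13 and 0.07 and did not pass. MBD2 and MBD3, the subunits related to methyl-CpG-binding proteins, had −0.01 (interval −0.28 to 0.25) and 0.20 (interval −0.07 to 0.47).

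Several CHD genes outside NuRD were upregulated. CHD6, CHD2, CHD1 and CHD8 passed, which makes 4 of 7, and none of the 7 was downregulated. Over all 10 CHD genes, NuRD members included, 5 passed as higher, against 16.3% of all genes tested, 9 had lines that did not overlap with TF1-BAR higher, against 40.9% of all genes and 40.8% of the protein-coding genes tested, and the median log2 fold change was 0.28. This pool crosses the groups used here and was not among the planned results. CHD1 and CHD8 did not pass with upper-quartile scaling, without the filter on low values, or without the eBayes trend. CHD4 and CHD7, which are not among the 5, passed as higher in 5 and 3 of the 14 alternative settings. The log2 fold change was above 0 in all 10, but that of CHD1L, which did not pass, turned to −0.04 with upper-quartile scaling.

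CHD6, a CHD ATPase whose function is less well known, had 8.70 and 8.76 FPKM in the TF1-BA cells and 14.6 and 15.8 FPKM in the TF1-BAR cells. The ratio of the means was 1.74 and the log2 fold change 0.76 ± 0.08 (adjusted p = 0.00668), and it passed in all 14 alternative settings. CHD6 lies on chromosome 20 (41402101 to 41618494, minus strand), where the median log2 fold change of the other genes was 0.39, the highest of all chromosomes. Of its neighbours within 200 kb, LPIN3 and EMILIN3 had log2 fold changes of 1.45 and 1.54, and ZHX3, which did not pass, of 0.20. The part of the chromosome in the difference of CHD6 was not tested. Without TF1-BA replicate 1 and replicate 2, its adjusted p was 0.0579 and 0.0565.

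CHD2, a CHD ATPase found at active promoters, was measured at 4.57 and 4.47 FPKM in the TF1-BA cells and at 6.85 and 7.37 FPKM in the TF1-BAR cells. Its log2 fold change was 0.60 ± 0.08 (adjusted p = 0.0114), a ratio of the means of 1.57, and the difference was larger than the spread within each line. The call was kept in all 14 alternative settings and lost without either TF1-BA library (adjusted p = 0.0814 and 0.0878). The median over the other genes of its chromosome, 15, was 0.08.

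CHD1, which binds a histone mark of active promoters, rose less, from 14.1 and 12.9 to 17.4 and 16.9 FPKM (log2 fold change 0.33 ± 0.08, adjusted p = 0.0363). CHD8, known for its part in Wnt signalling and brain development, went from 15.9 and 16.1 to 18.8 and 20.9 FPKM (0.30 ± 0.08, adjusted p = 0.0496). The lines were apart in both genes, yet CHD8 passed in only 6 and CHD1 in 11 of the 14 alternative settings. With a library left out, the adjusted p was 0.0879 to 0.227 for CHD1 and 0.0387 to 0.234 for CHD8, which passed only without TF1-BAR replicate 1. CHD7, mutated in CHARGE syndrome, CHD9, and CHD1L, which is activated by poly(ADP-ribose), had log2 fold changes of 0.26, 0.09 and 0.05 and did not pass (adjusted p = 0.0792, 0.495 and 0.596).

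**Figure D1:**
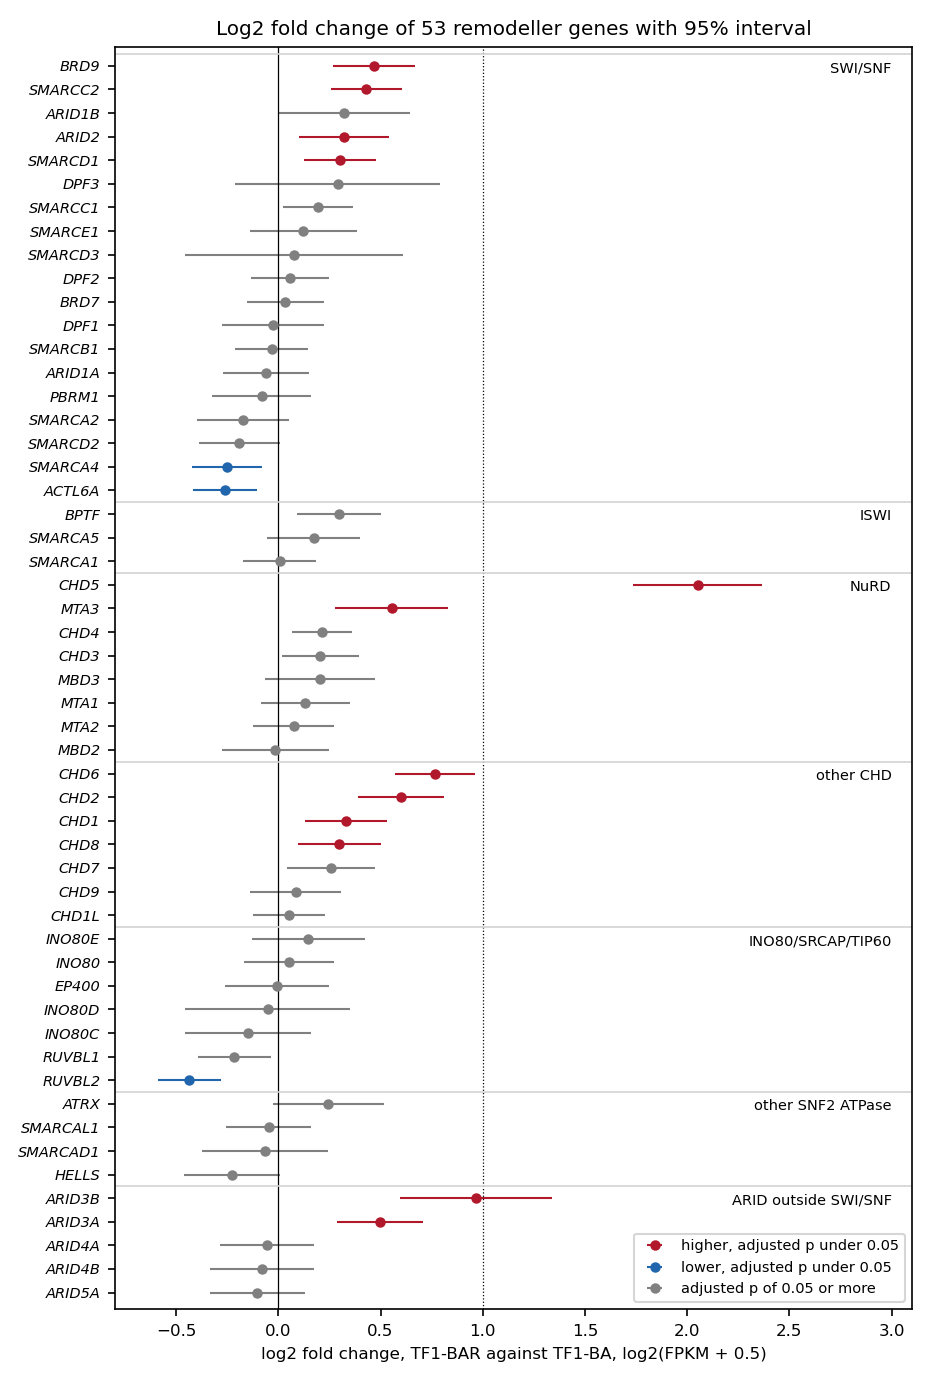
Log2 fold change (TF1-BAR against TF1-BA, on log2(FPKM + 0.5)) of the 53 remodeller genes tested, grouped by role, with points for the fold changes, horizontal bars for their 95% confidence intervals and a dotted line at the fold change threshold of 1. CHD5, at 2.05, stands apart from the other genes, 12 genes in red passed as higher, 3 in blue as lower, and the points of all 10 CHD genes lie right of 0 (CHD1L turned to −0.04 with upper-quartile scaling).

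In SWI/SNF, 19 of 20 genes were tested, of which BRD9, SMARCC2, ARID2 and SMARCD1 were upregulated and SMARCA4 and ACTL6A downregulated, all by less than 1.5-fold. These counts lie near the shares among all genes tested, 16.3% higher and 10.5% lower. The median log2 fold change was 0.06. ACTL6B, the neuronal counterpart of ACTL6A, was under the filter, with 7 and 1 fragments in TF1-BA against 11 and 7 in TF1-BAR. BRD9 and ARID2 were chosen for naming after their values were seen. The core subunits SMARCB1, a tumour suppressor lost in rhabdoid tumours, and SMARCE1, named here in the same way, had 18.3 to 19.7 and 2.01 to 2.27 FPKM over the 4 libraries and log2 fold changes of −0.03 and 0.12, and did not pass.

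Of the 2 alternative ATPases, SMARCA4 was lower in the TF1-BAR cells, at 19.9 and 19.2 FPKM against 23.8 and 22.9 FPKM in the TF1-BA cells. The difference was −0.25 ± 0.07 on the log2 scale with an adjusted p of 0.0495, just under the threshold. SMARCA4 passed in 8 of the 14 alternative settings, and in none of the 4 fits without a library (adjusted p between 0.0641 and 0.293). SMARCA2 went in the same direction, from 6.38 and 5.74 to 5.34 and 5.28 FPKM, but did not pass (−0.17 ± 0.09, adjusted p = 0.201). The balance of the 2 ATPases hardly moved, since SMARCA4 held 78.9% and 79.9% of their FPKM in the TF1-BA libraries against 78.9% and 78.4% in the TF1-BAR libraries.

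The paired scaffold subunits SMARCC1 and SMARCC2 both had higher values in the TF1-BAR cells. SMARCC2 passed, with 12.9 and 12.8 FPKM in the TF1-BA libraries and 17.1 and 17.8 FPKM in the TF1-BAR libraries (0.43 ± 0.07, adjusted p = 0.0148), and it did so in all 14 alternative settings. SMARCC1, the more abundant of both, had 33.7 and 31.6 and then 38.0 and 36.9 FPKM (0.20 ± 0.07, adjusted p = 0.0884). The share of SMARCC2 in the pair was 27.6% and 28.8% in the TF1-BA cells against 31.0% and 32.6% in the TF1-BAR cells. Without TF1-BA replicate 1 and replicate 2 and without TF1-BAR replicate 2, the adjusted p of SMARCC2 was 0.114, 0.117 and 0.0522.

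Of the SMARCD subunits, which link the complexes to transcription factors, only SMARCD1 passed. It was upregulated, from 24.5 and 25.3 to 31.8 and 29.8 FPKM (0.30 ± 0.07, adjusted p = 0.0333). SMARCD2 had lower values in the TF1-BAR cells, 35.2 and 34.2 against 32.0 and 28.7 FPKM, and did not pass (−0.19 ± 0.08, adjusted p = 0.128). SMARCD3, a form known from heart and muscle, stayed near 1 FPKM, and its lines overlapped. SMARCD1 therefore held 40.5% and 41.8% of the FPKM of the 3 genes in the TF1-BA libraries against 49.2% and 49.98% in the TF1-BAR libraries, and SMARCD2 held 58.3% and 56.5% and then 49.5% and 48.2%. Per MANE Select length, SMARCD2 remained the larger, with mean shares of 71.8% and 64.4% against 26.6% and 33.8% for SMARCD1. The call of SMARCD1 was lost in 5 of the 14 alternative settings and in each fit without a library (adjusted p up to 0.216). The differences in these and the other shares were not tested.

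The start regions of SMARCD1 and SMARCD2 are shown because both hold the same motif, while only SMARCD1 passed the test. The core of ETS factors (CCGGAA or TTCCGG, either strand, overlaps counted) was looked for after the values were seen, as ERG, an ETS factor, had 4.18 and 4.50 FPKM in the TF1-BA cells and 15.8 and 19.5 FPKM in the TF1-BAR cells. In the 250 bases before the RefSeq start (GRCh38.p14), 14 of the 45 remodeller genes with an entry held a match (31.1%), against 14.5% of the 35116 entries of all genes. These entries outnumber the 16816 protein-coding genes of the expression table and may differ in kind from the 45, which are all protein-coding. The share over protein-coding genes alone was not counted, and the gap between the shares was not tested. Matches were present in 2 of 6 upregulated, 0 of 2 downregulated and 12 of 37 other remodeller genes. CHD5, ARID3B, CHD6, ARID3A, SMARCC2 and ARID2, which were upregulated, and ACTL6A, which was downregulated, had no entry. A match is a description of the letters and not a binding site. The stretches of 30 bases with the most matches are given 5′ to 3′ on the strand of the gene, with the matches in capitals, at chr12:50085312-50085341 (plus strand) and chr17:63842767-63842796 (minus strand). They begin 30 and 111 bases before the RefSeq start and lie within the span that the deposited table gives for each gene.
SMARCD1: gggcggggggagTTCCGGTTCCGGttcttt
SMARCD2: cgacaaatcCCGGAAcCCGGAAttaagatc

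The alternative ARID subunits of the canonical SWI/SNF form did not pass the test. ARID1A, the most frequently mutated SWI/SNF gene in cancer, had 10.9 and 11.8 FPKM in the TF1-BA libraries and 10.5 and 11.3 FPKM in the TF1-BAR libraries (−0.06, interval −0.27 to 0.15), with overlap. Its alternative ARID1B went from 1.17 and 1.23 to 1.56 and 1.69 FPKM (0.32 ± 0.13, adjusted p = 0.119), with no overlap, and passed in 2 of the 14 alternative settings, with the protein-coding genes alone and with limma voom (0.44, adjusted p = 0.00251). Its log2 fold change was 0.0996 once a trend with GC content, exon length and level was removed. The share of ARID1B in the pair was 9.67% and 9.41% in the TF1-BA cells against 12.96% and 13.01% in the TF1-BAR cells. Per MANE Select length this share was 19.6% and 25.6%.

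BRD9, the bromodomain subunit of the non-canonical form, was upregulated from 6.94 and 7.26 to 9.72 and 10.3 FPKM (0.47 ± 0.08, adjusted p = 0.0170), and it passed in all 14 alternative settings. Without TF1-BA replicate 1 and replicate 2 and without TF1-BAR replicate 2, its adjusted p was 0.125, 0.102 and 0.0611. ARID2, the DNA-binding subunit of PBAF, rose from 9.66 and 8.65 to 11.8 and 11.3 FPKM (0.32 ± 0.09, adjusted p = 0.0495) and passed in 9 settings and in no fit without a library (adjusted p from 0.107). The other PBAF subunits PBRM1 and BRD7, also chosen after their values were seen, had −0.08 and 0.03 and did not pass.

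ACTL6A, the actin-related subunit of proliferating cells that SWI/SNF shares with INO80 and TIP60, was downregulated from 33.1 and 33.4 to 27.3 and 28.1 FPKM (−0.26 ± 0.06, adjusted p = 0.0356). It passed in 11 of the 14 alternative settings, and its adjusted p was 0.0625 to 0.227 with a library left out. ACTL6A held over 98.9% of the FPKM of the ACTL6 pair in each library. The DPF genes read modified histone tails. DPF1 and DPF2 had 12.3 to 14.4 and 9.66 to 10.5 FPKM over the 4 libraries, with overlap between the lines and log2 fold changes of −0.03 and 0.06. DPF3 had 0.459 and 0.526 and then 0.626 and 0.804 FPKM, and it entered the test through its TF1-BAR values, since its TF1-BA mean of 0.492 FPKM is under the filter.

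The ISWI genes did not pass the test. SMARCA5, the ISWI ATPase most used in dividing cells, had 19.6 and 19.0 FPKM in the TF1-BA libraries and 23.4 and 20.4 FPKM in the TF1-BAR libraries (0.17 ± 0.09, adjusted p = 0.208). SMARCA1, the other ISWI ATPase, lay between 14.96 and 15.9 FPKM in all 4 libraries (0.01, interval −0.17 to 0.19). BPTF, the largest subunit of NURF, chosen after its values were seen, had 4.98 and 4.81 and then 5.99 and 6.28 FPKM. Its lines did not overlap and its adjusted p was 0.0512 (0.30 ± 0.08), with 5 of the 14 alternative settings under 0.05.

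In the INO80, SRCAP and TIP60 group, RUVBL2 was downregulated and no gene was upregulated among the 7 tested, where 10.5% of all genes tested were lower and 16.3% higher. RUVBL2 and RUVBL1 form the ring ATPase that all 3 complexes share and that also serves as a chaperone in other assemblies. RUVBL2 (chromosome 19, 48993448 to 49015995, plus strand) had 77.7 and 76.9 FPKM in the TF1-BA cells and 58.6 and 55.4 FPKM in the TF1-BAR cells. The difference was −0.44 ± 0.06 on the log2 scale (adjusted p = 0.0115), a ratio of the means of 0.738, and it passed in all 14 alternative settings. Without TF1-BA replicate 1 and replicate 2 the adjusted p was 0.103 and 0.0975.

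RUVBL1 also had lower values in the TF1-BAR cells, 14.6 and 15.4 FPKM against 17.8 and 17.2 FPKM, with no overlap, but did not pass (−0.21 ± 0.07, adjusted p = 0.0783). It passed as lower in 3 of the 14 alternative settings. The catalytic subunits INO80 and EP400 overlapped between the lines, with 5.81 to 6.44 and 3.32 to 3.66 FPKM over all 4 and log2 fold changes of 0.05 (interval −0.17 to 0.27) and −0.01 (interval −0.26 to 0.25). The accessory subunits INO80C, INO80D and INO80E had log2 fold changes between −0.15 and 0.15. INO80B had 1 to 3 fragments per library, at or under the floor of 3 fragments taken as showing expression, and 76.0% of its exon bases are shared with another gene, so that no fold change is given.

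None of the 4 other SNF2 ATPases passed. ATRX, which deposits a histone variant at repeats and telomeres, had 3.41 and 3.04 and then 4.12 and 3.70 FPKM (0.24 ± 0.11, adjusted p = 0.150). HELLS, which is needed for DNA methylation at repeats, had 3.56 and 3.49 and then 3.03 and 2.84 FPKM (−0.23 ± 0.09, adjusted p = 0.127). HELLS lies on chromosome 10, where the median log2 fold change of the other genes was −0.35, and its neighbours TBC1D12 and NOC3L had −0.67 and −0.54; the part of the chromosome was not tested. SMARCAD1 and SMARCAL1, which act in repair and at stalled replication forks, overlapped between the lines, with log2 fold changes of −0.07 and −0.05.

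The ARID genes outside SWI/SNF were divided. ARID3A and ARID3B, which are transcription factors that bind AT-rich DNA, were upregulated, while ARID4A and ARID4B, subunits of the Sin3 deacetylase complex, and ARID5A had log2 fold changes of −0.06, −0.08 and −0.10 and did not pass. ARID3B (chromosome 15, 74541177 to 74598131, plus strand) had 13.8 and 15.2 FPKM in the TF1-BA cells and 25.03 and 32.9 FPKM in the TF1-BAR cells. Its ratio of the means was 2.00 and its log2 fold change 0.97 ± 0.14 (adjusted p = 0.0131), just short of the fold change threshold. It passed that threshold too after rescaling to TPM (1.03), and with TF1-BAR replicate 1 left out (1.16). The TF1-BAR libraries stood further from each other than the TF1-BA libraries did. Of its neighbours within 200 kb, SEMA7A and UBL7-AS1 were also higher, with log2 fold changes of 0.64 and 0.34 (adjusted p = 0.0154 and 0.0485), while UBL7, CLK3, CSK and EDC3, which did not pass, had 0.41, 0.21, 0.15 and 0.14. The part of the region in the difference of ARID3B was not tested.

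ARID3A, known for its part in B cell and blood stem cell development, rose from 12.8 in both TF1-BA libraries to 17.3 and 19.4 FPKM (0.50 ± 0.08, adjusted p = 0.0164). Both calls were lost without either TF1-BA library, at an adjusted p of 0.0786 and 0.0653 for ARID3B and 0.107 and 0.108 for ARID3A, and without the filter (0.0618 and 0.0535). ARID5B was under the filter, with 20 and 28 fragments in TF1-BA against 6 and 17 in TF1-BAR.

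Other subunits of the same complexes, which the naming rule did not take, were counted from a list of 50 genes, 49 of them in the table. Of the 46 tested, 11 were higher and 2 lower at an adjusted p under 0.05, 33 did not pass, none passed both thresholds, and the median log2 fold change was 0.17. These 13 of 46 genes are a share close to the 26.9% of all genes and 29.1% of the protein-coding genes tested. By direction, 16.3% of all genes tested were higher and 10.5% lower, and 16.6% and 12.5% of the protein-coding genes tested. By complex, 4 of 9 SWI/SNF partners, 1 of 7 NuRD partners, 1 of 6 ISWI partners and 1 of 3 partners of ATRX and HELLS were higher, and in the INO80, SRCAP and TIP60 list 4 of 21 were higher and 2 lower. The partner with the largest rise was BCL11A, a SWI/SNF-associated factor that represses foetal globin, with 1.07 and 1.03 FPKM in the TF1-BA cells and 2.34 and 2.30 FPKM in the TF1-BAR cells (0.86 ± 0.12, adjusted p = 0.0110). Its ratio of the mean FPKM was 2.2, and the 0.5 FPKM added before the logarithm keeps the log2 value under the fold change threshold. TFPT of INO80 and SS18L1 of SWI/SNF followed, with 0.58 and 0.51, the latter on chromosome 20. UCHL5, the INO80-associated deubiquitinase, was downregulated from 19.7 and 19.5 to 14.1 and 9.08 FPKM (−0.76 ± 0.20, adjusted p = 0.0498), with TF1-BAR libraries far apart, and VPS72 of SRCAP and TIP60 had −0.30. Without TF1-BA replicate 1, and likewise without TF1-BA replicate 2, 0 partner genes passed (limma). SRCAP itself, at 0.146 to 0.241 FPKM, was under the filter.

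The calls differed in how they held up under other processing. Of the 15 genes that passed, 6 did so in all 14 alternative settings that kept all libraries, namely CHD5, CHD6, CHD2, BRD9, SMARCC2 and RUVBL2. ARID3B, ARID3A and MTA3 failed in 1 setting only, with no filter on low values. CHD1 and ACTL6A passed in 11, SMARCD1 and ARID2 in 9, SMARCA4 in 8 and CHD8 in 6. Among the 38 genes that did not pass, CHD4 and BPTF passed in 5 settings, RUVBL1 and CHD7 in 3, ARID1B and SMARCA5 in 2. SMARCC1, ATRX and DPF3 did so in 1. No gene that passed changed its sign in any of the 14 settings.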

How the data were processed

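RNA was sequenced in 2 libraries each of TF1-BA and TF1-BAR cells. The authors mapped paired-end reads from libraries that do not mark the strand to GRCh38 with TopHat 2.0.13 and ran Cufflinks and Cuffdiff 2.2.0. The values they deposited are FPKM per gene and library, with no log transformation, and the annotation release is not given in the sources used here. Libraries were grouped by the labelled name and imatinib response.

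The lines were compared by limma 3.58.1 under R 4.3.3 (eBayes with a trend) on log2(FPKM + 0.5) for the 15519 genes with a mean of at least 0.5 FPKM, and p-values were adjusted over all of them by Benjamini-Hochberg. Thresholds were an adjusted p under 0.05 and, as in the study, a log2 fold change of 1 or more in size. A fold change on this scale understates that of low genes. The script was tested on simulated data. There, 39.6% of genes changed 1.5-fold, 67.0% of those changed 2-fold and 89.8% of those changed 4-fold passed the adjusted p, so that small changes can be missed. Each such set held 187 to 197 changed genes among those tested, so these shares need not hold for the real data.

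Fragments were recovered by finding library sizes and gene lengths at which FPKM become whole numbers. Of 30853 genes above 0, 14307 were whole at the GENCODE 44 exon length, 16359 at a fitted length, which is a weaker check, and 187 were not recovered. Of the remodeller genes, 8 were whole at the GENCODE 44 length and 48, CHD5 among them, at a fitted length. With wrong library sizes, 3 of 163 genes were whole. Fragment numbers cover counting error only. Shared exon bases come from GENCODE 44, and promoter letters from RefSeq.

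The remodeller genes, the partner list and the marker lists were chosen with earlier results of these data known. The genes named were the ATPases, the alternative subunits, every gene past both thresholds, and, in each direction, the 6 remodeller genes and 3 partner genes that passed the adjusted p with the largest fold changes; other genes were named after their values were seen. 15 alternatives were planned, and limma voom on the recovered fragments and removal of a trend with GC content, exon length and level, with and without the replicate block, were added after seeing the data.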

Additional observations from a re-analysis of the deposited data

How the results depend on the processing

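The 12 upregulated, 3 downregulated and 13 partner genes became 5, 1 and 4 with no filter on low values, where 30853 genes share the adjustment and 1446 of them pass. Without the eBayes trend, 1 remodeller gene was lower and 7 partners passed, and after rescaling to TPM, 2 passed both thresholds and 1 was lower. The median log2 fold change of the remodeller genes, 0.08, was 0.0920 with a pseudocount of 0.1 FPKM, 0.14 after TPM, 0.00109 after upper-quartile scaling, 0.0158 after quantile normalization, 0.10 with limma voom, and 0.0463 once a trend with GC content, exon length and level was removed, with and without the replicate block. The median over all genes tested, 0.07, moved alongside, to 0.0740, 0.126, −0.0137, −0.00384, 0.0805 and 0.000584 in the same order, and the causes were not tested. Upper-quartile scaling gave 8 higher and 4 lower genes, limma voom 18 and 3, and the protein-coding genes alone 16 and 3, where 26.5%, 37.4% and 41.7% of all genes tested passed. With 1 library left out, the count past both thresholds was 1 to 2, the higher count 1 to 9, the lower count 0 to 1, the partner count 0 to 11 and the median 0.0778 to 0.104. The line then keeps a lone library, which is assumed to vary like the other line. Of the 15 calls of single genes, repeated in 14 alternatives with all libraries, 177 of 210 were kept, and 23 further calls appeared. In the 4 fits without a library, 18 of 60 were kept and 42 lost. Replicate numbers were shared by the lines, but same-numbered libraries did not deviate together (correlation 0.0646), so the replicate block, which gave 11 higher and 2 lower genes and 12 partners, was used only as an alternative. Each tested remodeller gene had at least 66 fragments in every library.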
